A study of Mus musculus with 4 samples.

Results

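This account follows 9 genes of the glucose-sensing transcription factor ChREBP and of fatty acid synthesis in mouse pancreatic islet cells, namely Mlxipl, Txnip, Arrdc4, Tkt, Acly, Acaca, Fasn, Scd2 and Elovl6. They were taken by symbol from the 32285 genes of the matrices, and each symbol matched 1 gene. Islets came from male mice on a C57BL6/N background, either wild-type (WT) or homozygous for a knock-in allele of Pax4 that changes a single residue of the endogenous gene (HH). Mice of both genotypes were fed standard chow (SCD) and sampled at 12 weeks, or were switched to high-fat feeding (HFD) for 4 weeks and sampled at 16 weeks. Every group is a single droplet single-cell library made from islets pooled over several mice, so no difference between libraries has a replicate check. Genotype and library cannot be told apart, and neither can diet and age. The allele is present in every cell of the animal, not in beta cells alone.

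ChREBP, the product of Mlxipl, binds DNA with its partner Mlx and is activated by glucose metabolites. Its targets include Txnip and Arrdc4, alpha-arrestins that restrain glucose uptake, and genes that turn glucose carbon into fatty acids. Beta cells use glucose entry as their signal for insulin release, and Txnip is known there as a strongly glucose-responsive gene linked to beta cell loss.

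The members lie on GRCm38 as follows. Mlxipl spans chromosome 5 from 135089890 to 135138382 and Txnip chromosome 3 from 96557957 to 96561883, both on the plus strand. Arrdc4 lies on the minus strand of chromosome 7 from 68736995 to 68749241. RefSeq promoter windows of build GRCm38.p6, which run from 250 bases before each annotated start to 50 after it, held 8 of the 9 members. Scd2 had no entry.

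ChREBP response elements are built from pairs of E-box-like sites, so their letters were searched on both strands of 32851 promoter windows of 300 bases. The whole E-box, CACGTG, was in 7.15% of all windows. E-box-like sites in tandem, CACGNG and CACGNG 5 bases apart, were in 16 windows or 0.0487%, and 1 of these belonged to Txnip. The paired form, CANGNG and CNCNTG 5 bases apart, was in 0.557% of windows and in none of the members' windows. The stretches below are shown because they hold the only tandem or E-box matches among the members, with the match in capitals, 5′ to 3′ on the strand of the gene.

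Txnip tandem sites, chr3:96557852-96557908, plus strand: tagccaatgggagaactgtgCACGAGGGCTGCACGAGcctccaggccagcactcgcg
Arrdc4 E-box, chr7:68749406-68749451, minus strand: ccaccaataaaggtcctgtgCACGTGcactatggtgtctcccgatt
Mlxipl E-box, chr5:135089772-135089817, plus strand: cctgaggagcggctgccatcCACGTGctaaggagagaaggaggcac

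Counted from the annotated start, with negative positions before it, the Txnip match ran from -85 to -69 and the Arrdc4 match from -193 to -188. The Mlxipl match ran from -98 to -93 of the more upstream of its annotated starts. The second Mlxipl start had no such match but held a sterol element, TCACNCCAC, a motif in 1.24% of windows. Reads from the 3′ end of the transcript cannot tell these starts apart. The inverted CCAAT box, ATTGG, was in 37.4% of windows and in those of Mlxipl, Txnip, Arrdc4, Acly and Fasn. These matches describe the letters and are not evidence of binding.

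The libraries held 68011082 to 104810105 unique transcript counts (UMIs). Of the 1999 to 4231 cells used per library, cells were grouped by the hormone that made up at least 60% of their hormone UMIs. The groups held 1139 to 2883 insulin-dominant, 275 to 463 glucagon-dominant, 155 to 326 somatostatin-dominant and 70 to 192 cells dominated by pancreatic polypeptide (PP). Some transcription factors of the marker lists went with a hormone and others did not. Pdx1, a beta cell marker, stood at 69.7 to 103 CPM in insulin- and 69.0 to 112 CPM in somatostatin-dominant cells. Nkx6-1, another, stood at 187 to 253 CPM in insulin- and 60.5 to 93.0 CPM in PP-dominant cells. Mafa, a beta cell factor, stood at 194 to 395 CPM in insulin-dominant cells and at most at 11.5 CPM in the other hormone groups, and Hhex, a delta cell factor, at 251 to 312 CPM in somatostatin-dominant cells. CPM, the usual depth-scaled count, is the share of a gene in all UMIs of the same group and library. Cell barcodes shared by a pair of libraries numbered 6 to 11.

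Mlxipl was a gene of insulin- and somatostatin-dominant cells. In insulin-dominant cells it stood at 69.1, 57.4, 91.9 and 70.8 CPM in WT SCD, HH SCD, WT HFD and HH HFD. In somatostatin-dominant cells the values were 75.4, 89.7, 124 and 112 CPM, and in glucagon-dominant cells 10.4, 10.1, 7.58 and 8.15 CPM. The lowest insulin-dominant library thus lay above the highest glucagon-dominant one, and the PP-dominant cells, at 5.54 to 12.5 CPM, were as low. In edgeR's quasi-likelihood test on the 16 sums of 4 hormone groups in 4 libraries, with library as a block, Mlxipl was higher in insulin- than in glucagon-dominant cells by 3.56 on the log2 scale (SE 0.15, adjusted p = 2.03e-14). Against PP-dominant cells the difference was 3.19 (SE 0.18, adjusted p = 4.89e-12).

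When every cell was thinned to 3000 UMIs, 17.4% to 24.8% of insulin-dominant and 19.3% to 35.5% of somatostatin-dominant cells held a Mlxipl UMI, depending on the library. In glucagon-dominant cells the share was 1.73% to 3.31%. In endothelial cells, which should lack the gene, it was 0.685% to 2.58%, a range that overlaps that of glucagon-dominant cells. In CPM every glucagon-dominant value lay above the endothelial range of 1.69 to 6.16 CPM, which rests on 2 to 8 UMIs. With the RNA profile of insulin-dominant cells subtracted, Mlxipl in glucagon-dominant cells stood at 8.83, 9.07, 6.33 and 7.06 CPM. Without thinning the shares were 74.1% to 88.1% in insulin-dominant cells, at median depths of 24190 to 29859 UMIs, and 1.37% to 3.61% in endothelial cells, at 5812 to 7127 UMIs.

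Of the 9 members, 3 were called higher in insulin- than in glucagon-dominant cells (Mlxipl, Acly and Scd2) and 1 lower (Arrdc4), where a call is an adjusted p under 0.05 with a difference of at least 2-fold. Over all 11660 genes tested, 10.0% were called higher and 8.97% lower. Against PP-dominant cells 4 members were called higher (Mlxipl, Acly, Scd2 and Elovl6) and 0 lower, beside 9.83% and 9.30% of all genes. Against somatostatin-dominant cells 0 members were called in either direction, beside 8.97% and 11.4% of all genes. At an unadjusted p under 0.05 without the fold condition, 7 members were higher there, beside 32.4% of all genes, with differences of 0.51 for Mlxipl to 0.80 for Elovl6.

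These calls depend on scaling in a known way. Insulin, glucagon and the other islet hormones made up 58.2% to 61.0% of UMIs in insulin-dominant cells, 33.4% to 38.4% in glucagon-dominant and 27.5% to 29.5% in somatostatin-dominant cells, which presses every other gene down in plain CPM. The TMM factors of edgeR allow for this and library totals do not. With library totals, Mlxipl over glucagon-dominant cells, Acly, Scd2 and the lower level of Arrdc4 kept their direction, but all members of the somatostatin comparison stood below 0, and 1 higher call against glucagon-dominant cells, Mlxipl, was left of 3. The order of Mlxipl and Acly between insulin- and somatostatin-dominant cells is therefore set by the scaling.

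**Figure D1:**
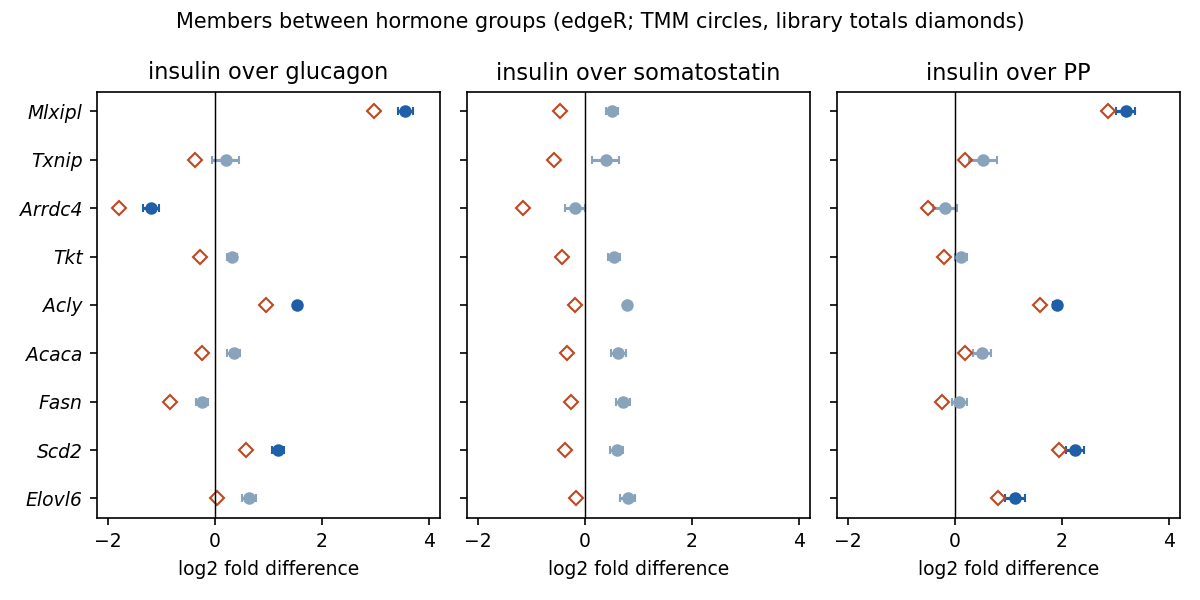
Log2 difference of each member between insulin-dominant cells and each other hormone group (x axis), with circles for edgeR with TMM factors and bars of 1 SE, dark where called, and open diamonds for edgeR with library totals. Mlxipl, Acly and Scd2 stood to the right of 0 on both scales against glucagon- and PP-dominant cells, while against somatostatin-dominant cells the diamonds all lay left of 0.

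Among the synthesis genes, Acly, which makes cytosolic acetyl-CoA from citrate, was detected in nearly every insulin-dominant cell, with 0.0495% to 0.659% of cells lacking a UMI. It stood at 349, 357, 312 and 275 CPM in insulin-dominant cells in the order WT SCD, HH SCD, WT HFD and HH HFD, at 159 to 185 CPM in glucagon-dominant and at 99.0 to 112 CPM in PP-dominant cells. The ranges did not overlap, and the fitted differences were 1.54 (SE 0.07, adjusted p = 4.68e-14) and 1.91 (SE 0.07, adjusted p = 8.34e-15). Scd2, a stearoyl-CoA desaturase, was higher in insulin- than in glucagon-dominant cells by 1.18 (SE 0.11, adjusted p = 1.63e-08). Elovl6, which lengthens saturated fatty acids, passed the call only against PP-dominant cells, by 1.12 (SE 0.19, adjusted p = 4.68e-05).

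The rate-limiting carboxylase Acaca and the fatty acid synthase Fasn were low. In insulin-dominant cells Acaca stood at 7.01 to 8.44 CPM and Fasn at 11.1 to 13.5 CPM. Fasn was at 18.5 to 23.5 CPM in glucagon-dominant cells, above every insulin-dominant library in plain CPM, but its fitted difference was -0.24 (SE 0.10, edgeR adjusted p = 0.051), which passed the threshold with RLE factors, and without hormone and mitochondrial genes the CPM ranges of these groups overlapped. Tkt, the transketolase of the pentose phosphate pathway, differed by 0.32 or less in size from glucagon- and PP-dominant cells. Arrdc4 stood at 4.48 to 5.28 CPM in insulin-dominant and 12.8 to 20.3 CPM in glucagon-dominant cells, a fitted difference of -1.20 (SE 0.15, adjusted p = 5.64e-07).

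The other genes of the pathway are read against the 10.0% of all genes called higher and 8.97% called lower in this comparison. Of 18 tested genes in a list of further fatty acid and glycerolipid synthesis genes, 4 were called higher in insulin- than in glucagon-dominant cells and 2 lower. Elovl5, an elongase of polyunsaturated fatty acids, was higher by 2.25 and Srebf1, a transcription factor of lipogenesis, by 1.43, while Mid1ip1, an activator of acetyl-CoA carboxylase, had a difference of -1.37. Of 6 tested genes of ChREBP partners and glucose entry, 2 were higher, Slc2a2 (the glucose transporter GLUT2) by 6.48 and G6pc2 by 5.49, and Hk1, a hexokinase that works at low glucose, had a difference of -6.77. Of 12 tested other glucose-responsive genes, 2 were higher and 2 lower, and of 6 pentose phosphate genes and 7 alpha-arrestin and thioredoxin genes 0 were called.

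Txnip had a small diet difference in insulin-dominant cells and a large one in the other hormone groups. In insulin-dominant cells it stood at 176, 204, 233 and 224 CPM in WT SCD, HH SCD, WT HFD and HH HFD. In glucagon-dominant cells the values were 118, 169, 541 and 604 CPM, and in somatostatin-dominant cells 185, 238, 550 and 520 CPM. Both HFD libraries lay above both SCD libraries in all of these groups, narrowly so in insulin-dominant cells. In PP-dominant cells Txnip stood at 85.0 and 71.0 CPM on SCD and at 409 and 428 CPM on HFD.

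The HFD level in WT was 1.33-fold the SCD level in insulin-dominant cells, 4.59-fold in glucagon-dominant, 2.98-fold in somatostatin-dominant and 4.82-fold in PP-dominant cells. In HH the folds were 1.10, 3.57, 2.18 and 6.03. The counting intervals of the log2 ratios in the other hormone groups, the lowest of which reached down to 0.99 in somatostatin-dominant HH cells, lay above those of insulin-dominant cells, which ended at 0.45 in WT and 0.17 in HH.

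**Figure D2:**
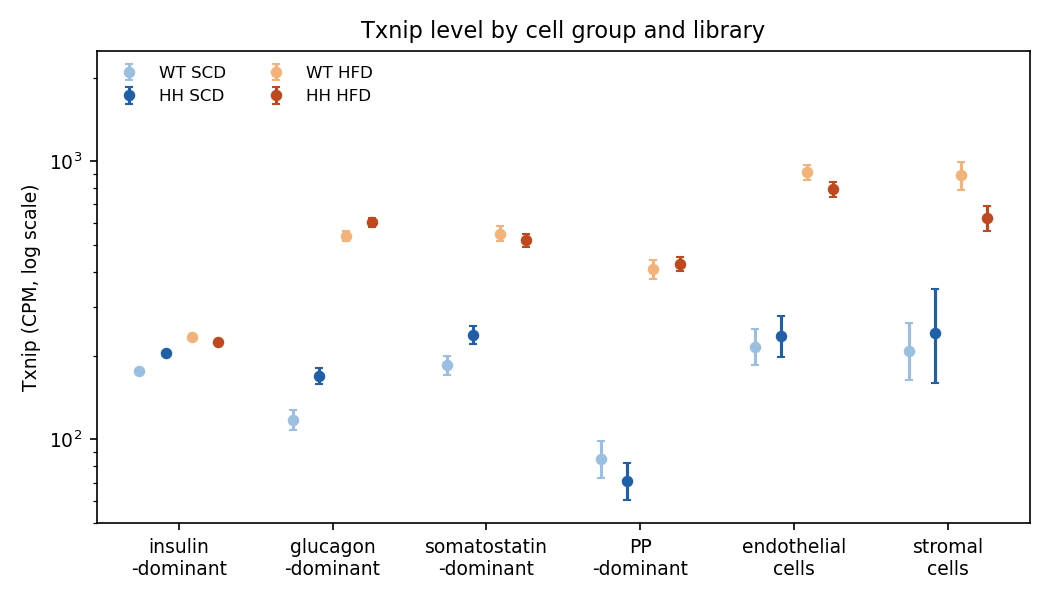
Txnip level (y axis, CPM on a log scale) in the hormone groups and in endothelial and stromal cells (x axis), with a point for each library and bars for the exact Poisson interval at the 95% level. Insulin-dominant cells stood between 176 and 233 CPM, while in the glucagon-, somatostatin- and PP-dominant, endothelial and stromal cells plotted the HFD libraries stood at 409 CPM or more.

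The difference between hormone groups was tested with an interaction of hormone group and diet, a fit chosen after these values were seen, in which the WT and HH libraries of a diet are the pair and library is a block. The diet difference of Txnip was larger in glucagon- than in insulin-dominant cells by 1.74 on the log2 scale (SE 0.15, edgeR adjusted p = 2.76e-08). It was larger by 0.98 in somatostatin-dominant (SE 0.15, edgeR adjusted p = 0.000306) and by 1.96 in PP-dominant cells (SE 0.16, edgeR adjusted p = 1.80e-08). By p, Txnip was the gene of rank 5, 25 and 7 among 11660. Genes that respond to cell dissociation stood around it in the same direction, with Fos at rank 2, 1 and 2 and Atf3 at rank 8, 3 and 1. All 10 genes of that list had a positive interaction in each contrast, with an edgeR adjusted p under 0.05 except for Dnajb1 in PP-dominant cells (adjusted p = 0.059). These values hold both a fall in insulin-dominant cells, where the median log2 ratio of HFD over SCD of the list was -0.38 in WT and -1.53 in HH, and a rise elsewhere, with medians of 1.09 and 1.02 in glucagon-, 1.02 and 0.090 in somatostatin- and 1.54 and 1.30 in PP-dominant cells. Their part in the Txnip difference was not tested. The glucagon and PP differences passed the 2-fold call that 0.892% and 0.789% of all genes passed in this direction, and the somatostatin difference fell just short of it, beside 0.369% of all genes. In the lower direction 0 members were called, beside 0.497%, 0.249% and 0.334% of all genes in glucagon-, somatostatin- and PP-dominant cells.

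Of the other 8 members, 0 reached an adjusted p under 0.05 in this edgeR interaction, and 6 of their 24 tests had an unadjusted p under 0.05, beside 17.0%, 12.6% and 14.3% of all genes in the glucagon, somatostatin and PP contrasts. Arrdc4, the closest relative of Txnip among the members, stood at 19.2 and 20.3 CPM on SCD and 16.0 and 12.8 CPM on HFD in glucagon-dominant cells, with a log2 ratio of -0.66 (-1.14 to -0.20) in HH and of -0.26 in WT, where the interval held 0. Arrdc3, another alpha-arrestin, also had a positive interaction, of 0.99 in glucagon-, 0.82 in somatostatin- and 0.95 in PP-dominant cells (edgeR adjusted p = 0.000278, 0.0304 and 0.0128), but its level was lower on HFD in every hormone group and most so in insulin-dominant cells. In glucagon-dominant cells it stood at 42.7, 50.5, 31.0 and 36.3 CPM in WT SCD, HH SCD, WT HFD and HH HFD.

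Endothelial and stromal cells also had more Txnip on HFD. In endothelial cells it stood at 215 and 235 CPM on SCD and at 913 and 794 CPM on HFD, a log2 ratio of 2.09 (1.86 to 2.32) in WT and 1.76 in HH. Stromal cells stood at 209 and 241 CPM on SCD and at 891 and 625 CPM on HFD. Leukocytes were lower, at 43.0 and 75.7 CPM on SCD and 125 and 109 CPM on HFD, a log2 ratio of 1.54 (0.63 to 2.63) in WT and of 0.52 in HH, where the interval held 0. Arrdc4 was also higher on HFD in endothelial cells, at 13.1 against 32.0 CPM in WT (log2 1.29, 0.30 to 2.41). In HH its log2 ratio was 0.66, with an interval of -0.38 to 1.84 that held 0.

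After thinning to 3000 UMIs, the share of glucagon-dominant cells with a Txnip UMI was 29.5% and 33.5% on SCD and 71.3% and 77.1% on HFD. In insulin-dominant cells it was 37.3%, 42.4%, 43.7% and 43.2% in WT SCD, HH SCD, WT HFD and HH HFD. Unthinned, 70.1% to 98.2% of glucagon-dominant and 87.3% to 92.2% of insulin-dominant cells held one. Counted without hormone and mitochondrial genes, Txnip in WT SCD stood at 484 CPM in insulin- and 193 CPM in glucagon-dominant cells, and in WT HFD at 656 and 939 CPM, so the order of the groups was opposite in the SCD and HFD libraries on this scale too.

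The summed level of the 10 dissociation genes (Fos, Jun, Egr1, heat shock genes and others) in insulin-dominant cells was 3897, 3975, 2842 and 1618 CPM in WT SCD, HH SCD, WT HFD and HH HFD. In glucagon-dominant cells it was 3929, 5016, 8477 and 8640 CPM and in PP-dominant cells 2474, 3302, 8652 and 9160 CPM, higher on HFD as Txnip was, and in somatostatin-dominant cells 7001, 9491, 17675 and 11962 CPM. In WT endothelial cells, where Txnip was several times higher on HFD, their sum was 10091 CPM on SCD and 10060 CPM on HFD, and in HH endothelial cells 9545 and 7985 CPM. In stromal cells the sum was 13496 and 17712 CPM in WT, higher on HFD, and 14796 and 12420 CPM in HH, lower on HFD. Ins1 and Ins2 made up 0.834% to 1.35% of UMIs in glucagon-dominant cells, and with the insulin-group profile subtracted the glucagon difference of Txnip was 1.77. Free RNA of the other cell groups was not estimated. The part of free RNA in the Txnip difference was not tested.

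Across single insulin-dominant cells, Txnip was spread unevenly. The median cell held 1.29, 1.62, 1.87 and 1.77 Txnip UMIs per 10000 in WT SCD, HH SCD, WT HFD and HH HFD, and the cell at the 90th percentile 4.15 to 4.92. The tenth of cells with the most Txnip UMIs held 30.2% to 33.9% of them, against 18.4% to 21.0% for Acly.

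Among 3138 genes with at least 20 CPM in every library, the 5 most like Txnip by their lowest Pearson r over the 4 libraries were Jun, Fos, Egr1, Btg2 and C2cd4b. The r with Txnip over cells was 0.26 to 0.31 for Jun and 0.26 to 0.35 for Fos, transcription factors of the immediate early response and members of the dissociation list. Mlxipl ranked 91 with r of 0.05 to 0.13, Scd2 214 with 0.04 to 0.08, Acly 832 and Tkt 2842. These are descriptions over cells that share a library and its depth. Mlxipl per 10000 UMIs itself had an r of -0.27 to -0.24 with the log of the cell's UMIs, and Txnip of -0.12 to -0.02.

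**Figure D3:**
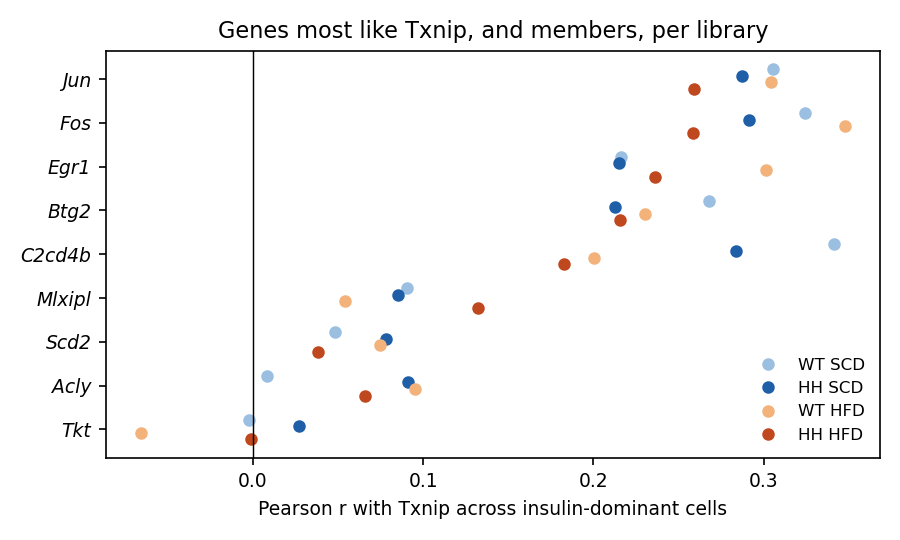
Pearson r with Txnip across insulin-dominant cells (x axis) for the 5 most similar genes and the members with at least 20 CPM, with a point for each library. Jun and Fos stood at 0.26 or more in every library, and the members stood at or below 0.13.

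In insulin-dominant cells the diet differences of Scd2 and Mlxipl were as large in size as that of Txnip or larger. In these cells 6 members had a mean of at least 10 CPM over the 4 libraries, the level from which a change was counted. Arrdc4, Acaca and Elovl6 were below that level. A change past the threshold here is a log2 ratio of 0.3219 or more in size. In WT, 2 members, Mlxipl and Txnip, were higher past it on HFD and Scd2 was lower, beside 6.57% of 6011 genes higher and 13.1% lower. In HH 0 members were higher and 2, Acly and Scd2, were lower, beside 7.02% and 18.1% of genes. The median log2 ratio of the 6 members was 0.24 in WT and -0.08 in HH, and that of all genes -0.03 and -0.07. With 6 genes these counts are small, and nothing is read from them about the members as a set.

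Scd2 was lower on HFD in every hormone group. In insulin-dominant cells it stood at 42.6, 33.3, 29.4 and 23.7 CPM in WT SCD, HH SCD, WT HFD and HH HFD, a log2 ratio of HFD over SCD of -0.54 (-0.64 to -0.43) in WT and -0.49 (-0.59 to -0.39) in HH. The ratio was -0.72 and -0.75 in glucagon-dominant cells and -1.01 and -0.40 in somatostatin-dominant cells, each with an interval below 0. In PP-dominant cells it was -0.79 in WT, with an interval that held 0, and -1.28 in HH. In endothelial cells Scd2 stood at 29.7 and 35.8 CPM on SCD and 35.4 and 40.8 CPM on HFD, and the intervals of both ratios held 0. In stromal cells the log2 ratio was 0.47 in WT, with an interval that held 0, and -1.66 (-2.54 to -0.75) in HH.

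Mlxipl was higher on HFD in insulin-dominant cells, by a log2 ratio of 0.41 (0.34 to 0.48) in WT and 0.30 (0.24 to 0.37) in HH. In somatostatin-dominant cells the ratio was 0.72 (0.46 to 0.98) and 0.32 (0.06 to 0.57). In glucagon-dominant cells, at a mean under 10 CPM, it was -0.46 in WT and -0.31 in HH, with intervals that held 0. In PP-dominant cells Mlxipl stood at 12.5 CPM on SCD and 5.54 CPM on HFD in WT, and at 8.46 and 11.5 CPM in HH. Acly was lower on HFD in insulin-dominant cells, at -0.16 (-0.20 to -0.13) and -0.38 (-0.41 to -0.35). Its intervals in somatostatin-dominant cells held 0 in both genotypes. Tkt had a ratio of 0.20 in WT and -0.20 in HH insulin-dominant cells.

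**Figure D4:**
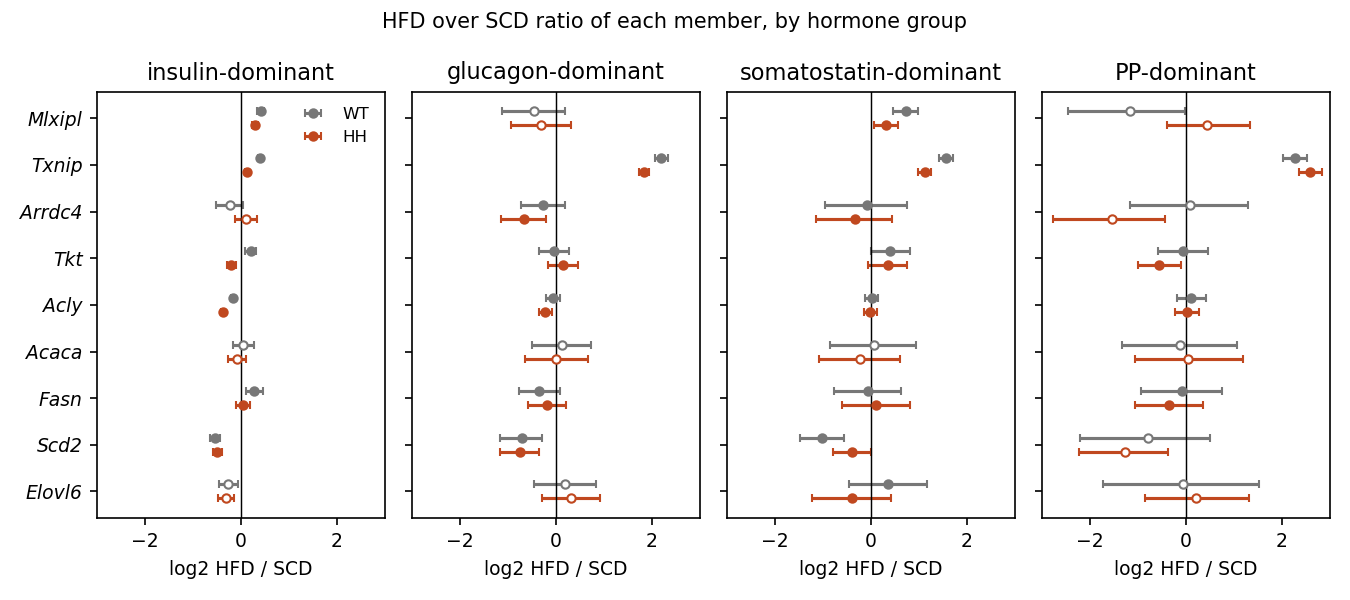
Log2 ratio of HFD over SCD (x axis) for each member in each hormone group, grey for WT and red for HH, with exact counting intervals at the 95% level and open points where the mean was under 10 CPM. Txnip stood at 1.13 or more outside insulin-dominant cells, and Scd2 was left of 0 in every panel.

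Other genes of these pathways were also lower on HFD in insulin-dominant cells. Arrdc3 stood at 39.1, 38.1, 15.6 and 12.8 CPM in WT SCD, HH SCD, WT HFD and HH HFD. Lpin1, which makes diacylglycerol, stood at 29.0, 26.7, 15.9 and 13.0 CPM. Of 8 further fatty acid and glycerolipid synthesis genes with at least 10 CPM, 4 were lower past the threshold on HFD in WT and 4 in HH, with Elovl5, Insig1 and Mid1ip1 beside Lpin1, and 0 were higher. Over all genes 13.1% were lower and 6.57% higher in WT, and 18.1% and 7.02% in HH.

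Between genotypes, Scd2 and Mlxipl were lower in HH insulin-dominant cells in both diets. For Scd2 the log2 ratio of HH over WT was -0.35 (-0.44 to -0.26) on SCD and -0.31 (-0.42 to -0.19) on HFD. For Mlxipl it was -0.27 (-0.34 to -0.20) and -0.38 (-0.44 to -0.31). These ratios are read against a median over all genes of -0.08 on SCD and -0.13 on HFD in plain CPM, and against 0.01 and -0.02 with median-of-ratios size factors, under which Mlxipl was at -0.17 and -0.26 and Scd2 at -0.26 and -0.19. On SCD 1 of the 6 members, Scd2, was lower past the threshold and 0 higher, beside 2.10% and 0.366% of genes. Scd2 was no longer past it with median-of-ratios factors, without hormone and mitochondrial genes, with equal weight per cell or in cells of 10000 to 30000 UMIs, where its ratio was -0.30 to -0.25 and kept its direction. On HFD 2 were lower, Mlxipl and Tkt, and 0 higher, beside 13.6% and 3.11% of genes. With median-of-ratios factors neither was past the threshold, with Tkt at -0.23. Tkt alone was lost with doublets kept, with the looser filter or without hormone and mitochondrial genes, each time just inside it. Markers of other cell types also differed between the HFD insulin-dominant cells. The 7 alpha cell markers summed to 1462 CPM in WT and 2934 CPM in HH and the 4 PP cell markers to 507 and 1355 CPM, with 0 of them undetected. Delta cell markers summed to 80.8 and 197 CPM, leukocyte markers to 21.7 and 44.5 CPM, endothelial markers to 4.37 and 23.2 CPM and stromal markers to 2.40 and 21.7 CPM. The beta cell markers summed to 43526 CPM in WT and 61339 CPM in HH, but most genes of that list were lower in HH. Mafa stood at 311 and 194 CPM, Nkx6-1 at 253 and 187 CPM, Ucn3 at 283 and 210 CPM and Pdx1 at 103 and 83.0 CPM. Slc2a2 and G6pc2 of the list were also lower in HH. The other gene of the list is Iapp. On SCD the sums in WT and HH were 1388 and 1435 CPM for alpha, 496 and 664 CPM for PP, 78.6 and 162 CPM for delta, 7.92 and 3.31 CPM for endothelial and 4.78 and 1.02 CPM for stromal markers. Their part in the genotype differences was not tested.

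**Figure D5:**
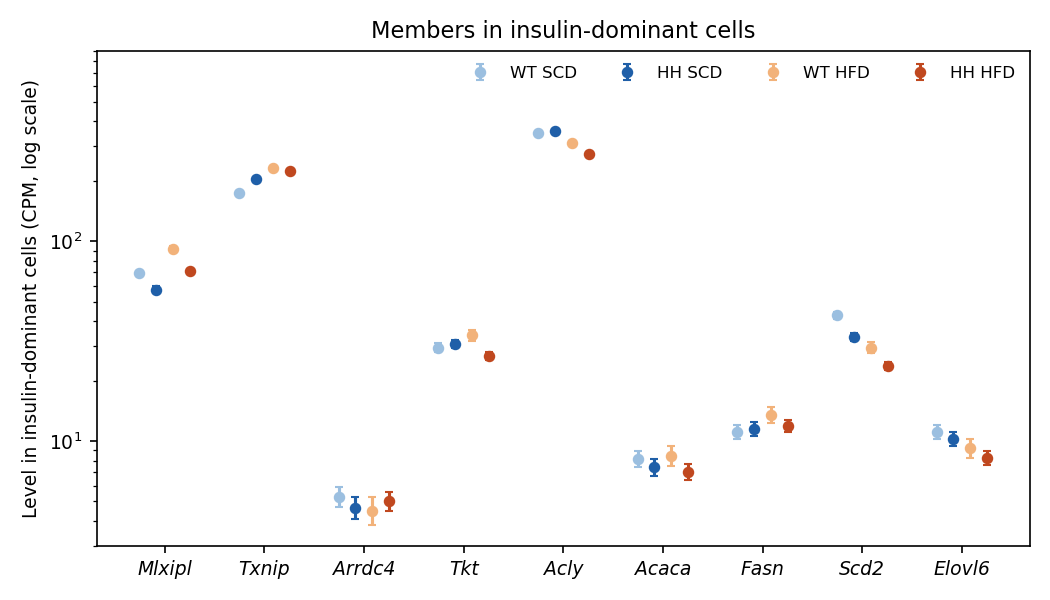
Level of each member in insulin-dominant cells (y axis, CPM on a log scale) with a point for each library and exact Poisson intervals at the 95% level. Mlxipl and Scd2 were lower in HH than in WT within each diet, with Mlxipl between 57.4 and 91.9 CPM.

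In somatostatin-dominant cells the HH over WT ratio of Mlxipl was 0.25 on SCD and -0.16 on HFD, each with an interval that held 0. Tkt in insulin-dominant cells stood at 29.4 and 30.7 CPM in WT and HH on SCD and at 33.8 and 26.7 CPM on HFD. The ratio of HH over WT was 0.06 (-0.04 to 0.16) and -0.34 (-0.45 to -0.23), a difference between the diets of -0.41 (-0.55 to -0.26). The summed dissociation genes stood at 2842 CPM in WT HFD and 1618 CPM in HH HFD insulin-dominant cells, with 10 of 10 of them lower past the threshold in HH. Their part in these differences was not tested.

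Txnip was higher in HH than in WT on SCD, by 0.22 (0.18 to 0.26) in insulin-dominant, 0.52 (0.37 to 0.68) in glucagon-dominant and 0.37 (0.21 to 0.52) in somatostatin-dominant cells. In PP-dominant cells it was -0.26, with an interval that held 0. On HFD the ratios were -0.057 (-0.096 to -0.018), 0.16 (0.08 to 0.24) and -0.08 (-0.20 to 0.04), and the ratio of -0.057 in insulin-dominant cells turned to 0.058 with median-of-ratios size factors. The change of the ratio from SCD to HFD was -0.28 (-0.33 to -0.22), -0.36 (-0.53 to -0.19) and -0.45 (-0.64 to -0.25) in the same order of groups. In PP-dominant cells the HFD ratio was 0.064 and the change 0.32, in the other direction, with intervals that held 0. The summed dissociation genes were likewise higher in HH than in WT on SCD in glucagon- and somatostatin-dominant cells, and also in PP-dominant cells, where Txnip was not. Their part was not tested.

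Upstream of ChREBP, its partner Mlx stood at 18.4 to 21.0 CPM and its paralog Mlxip at 13.7 CPM on average in insulin-dominant cells. Of the 5 genes of this list with at least 10 CPM, 2 were lower past the threshold in HH on HFD, where 13.6% of all genes were lower and 3.11% higher, Slc2a2 with a log2 ratio of -0.99 and G6pc2, just past it, with -0.3227. Among glucose-responsive genes, 3 of 6 were lower in HH on HFD, namely Khk, the fructose kinase, with a log2 ratio of -0.98, and Klf10 and Rgs16 with -0.74 each. Of 4 pentose phosphate genes 1 was lower, Rpia, at 17.6 and 11.6 CPM. In the alpha-arrestin and thioredoxin list 1 of 4 genes was past the threshold, Txn1, the thioredoxin that Txnip binds, at 67.8 CPM in WT HFD and 99.8 CPM in HH HFD.

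A small set of insulin-dominant cells without a Mafa UMI but with a UMI of Gc, Aldh1a3 or Serpina7 held 56, 37, 40 and 316 cells in WT SCD, HH SCD, WT HFD and HH HFD. Mlxipl stood at 107, 103, 155 and 82.3 CPM in these cells and at 68.2, 56.8, 89.9 and 69.4 CPM in the others of each library. Acly stood at 303, 353, 289 and 210 CPM in these cells and at 350, 357, 312 and 283 CPM in the others. Mlxipl was thus higher in these cells in each library, and so were Scd2, Fasn and Arrdc4, the last 2 on few UMIs. Scd2 stood at 57.2, 51.0, 41.4 and 27.3 CPM in these cells and at 42.2, 33.1, 29.0 and 23.3 CPM in the others. Txnip was higher except in HH SCD, at 201 against 204 CPM. Acly was lower in each library, and Tkt, Acaca and Elovl6 went both ways. The median depth of these cells was 22701.5, 19166, 28410 and 25573 UMIs, against 26500, 26322, 29921 and 24073 UMIs in the others. No test was made, since cells of 1 library are not replicates.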

How the data were processed

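The authors aligned reads to mm10 with Cell Ranger 6.0 (submitters' processing notes) and deposited filtered matrices of raw UMI counts, with neither ambient RNA removal nor doublet removal applied to the deposited files. The authors' filter was applied with all conditions required: mitochondrial UMIs under 10%, 3000 to 50000 UMIs and 2000 to 5000 genes. It kept 61.9%, 67.8%, 38.3% and 61.6% of barcodes in WT SCD, HH SCD, WT HFD and HH HFD. Scrublet (scanpy 1.11.5) scores were ranked and the top cells removed at a rate of 0.8% per 1000 cells, since its automatic threshold marked as few as 0.160% of cells; 81, 80, 33 and 154 cells were removed. A cell was hormone-dominant with at least 60% of its hormone UMIs from 1 hormone and that hormone alone at 5% or more of all its UMIs. Cells with more UMIs of a non-endocrine marker list than of the pan-endocrine list went to that non-endocrine group instead.

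Sums per library and group were scaled to CPM, with exact Poisson intervals. Ratios have exact conditional binomial intervals at the 95% level. Both cover counting error only. Hormone groups were compared with edgeR 4.0.16 (R 4.3.3), TMM, library block and Benjamini-Hochberg adjustment. The p-values measure how differences between hormone groups vary over 4 libraries, each a different combination of genotype and diet. They hold no replicate spread within a condition. On simulated counts, 89.2% of 2-fold changes were recovered in the insulin over glucagon comparison of 11660 genes. The share that also met the 2-fold condition of a call was not tested. Simulated ratio intervals for HH over WT on SCD covered 95.5% of 6174 genes. Positions came from GENCODE M21 on GRCm38. DESeq2 1.42.0 was an alternative.

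The members and lists were chosen with earlier results of these data known. Besides the members, named genes were those of the lists past a log2 ratio of 0.3219 in insulin-dominant cells at a mean of 10 CPM or more, or called between hormone groups, with the largest taken first, and the 5 genes most like Txnip across cells. Mlx, Mlxip, the marker genes and Hk1 were added for context.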

Additional observations from a re-analysis of the deposited data

Results flagged for a closer look

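The HFD over SCD difference of Txnip was not the same in all hormone groups by the interaction of hormone group and diet. It exceeded that of insulin-dominant cells by 1.74 in glucagon-dominant, 0.98 in somatostatin-dominant and 1.96 in PP-dominant cells on the log2 scale, with HFD libraries above SCD libraries in every one of these groups.

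Txnip in insulin-dominant cells had a log2 ratio of HH over WT of 0.22 on SCD and -0.057 on HFD, and Acly of 0.035 and -0.18. Tkt had a ratio of HFD over SCD of 0.20 in WT and -0.20 in HH. Each pair has opposite signs with counting intervals clear of 0, from 1 library a group, and the difference was not tested against replicate error. For Txnip the HFD ratio was 0.058 with median-of-ratios size factors, so that its signs were then not opposite.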

How the results depend on the processing

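Over 1845 recomputed values, 1703 were labelled the same, 94 moved, 25 reversed, 13 newly passed and 10 no longer passed. These labels do not follow every change of sign. The change of sign of Txnip in HH over WT on HFD with median-of-ratios size factors is not among the 25 reversed. The Txnip interaction kept its direction and an adjusted p under 0.05 in 9 alternatives for each hormone group, with 1.63 to 1.86 for glucagon, 0.87 to 1.08 for somatostatin and 1.66 to 2.24 for PP (highest edgeR adjusted p = 8.40e-06, 0.0177 and 1.88e-05). Each leave-one-library fit leaves a diet with 1 library, which is assumed to vary like the others.

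Library totals in place of TMM left 1 member called higher over glucagon- and 1 called lower than somatostatin-dominant cells, and turned Txnip (-0.37), Tkt (-0.27) and Acaca (-0.24) over glucagon, Tkt (-0.21) and Fasn (-0.25) over PP, and over somatostatin Mlxipl (-0.47), Txnip (-0.57), Tkt (-0.43), Acly (-0.18), Acaca (-0.34), Fasn (-0.26), Scd2 (-0.37) and Elovl6 (-0.17). Without the library block Txnip over glucagon was -0.19. Leaving out 1 library gave -0.13 to 0.50 for Txnip over glucagon, and over PP -0.55 to 0.14 for Arrdc4, -0.0032 to 0.21 for Tkt and -0.064 to 0.18 for Fasn.

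In insulin-dominant cells, the count lower in HH on HFD was 1 with the looser cell filter, with doublets kept, without hormone and mitochondrial genes or at a mean of 50 CPM, and 0 with median-of-ratios factors or at 1.5-fold. The count lower in HH on SCD was 0 with these last 2 settings, without hormone and mitochondrial genes, with equal weight per cell, in cells of 10000 to 30000 UMIs and at 50 CPM. The count higher on HFD in HH was 1 with median-of-ratios factors or equal weight. Txnip in HH over WT on HFD was 0.058 with median-of-ratios factors. In somatostatin-dominant HH cells the HFD over SCD ratio of Arrdc4 was 0.60 at 90% dominance and that of Tkt -0.17 at 10000 to 30000 UMIs. In PP-dominant cells Mlxipl, with few UMIs, was -0.96 (HH over WT, HFD) and 0.52 (HFD over SCD, WT) with the looser filter, and 0.27 (HH over WT, SCD) and -0.25 (HFD over SCD, HH) at 90% dominance. The cause was not tested.

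Hormone groups were compared within libraries, with library as a block. Between libraries, no paired analysis was possible because the labels give no replicate numbers and each group is 1 library. Low counts limit Arrdc4, Acaca and Elovl6 in insulin-dominant cells, Mlxipl in glucagon-dominant cells, and most members in PP-dominant cells.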
